A study of Rattus norvegicus with 6 samples.

Results

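Genes that mark the proximal tubule of the kidney and carry out its transport and metabolism were followed in whole-kidney RNA of rats with a model of focal segmental glomerulosclerosis (FSGS), a scarring disease of the filtering units. The set held 7 genes, chosen by a list of Ensembl identifiers with their chromosomes: Lrp2, Aqp1, Hnf4a, Fbp1, Slc22a6, Slc22a8 and Slc34a1. All 7 were found on their stated chromosome among the 21986 genes of the deposited table, and all 7 passed the filter of a mean of at least 0.5 FPKM. FPKM, the fragments mapped to a gene scaled for its length and for the size of the library, is a level per length that allows genes to be compared within a library. The table pairs no identifier with a gene name, so the names came with the list of identifiers and could be checked only by chromosome. Slc22a6 and Slc22a8 are both on chromosome 1, so this check cannot tell their identifiers apart, and the identity of Slc22a8, whose level was low in controls and rose, is unsure.

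The samples were kidneys of male Wistar rats of wild-type (WT) genotype, 3 in the control group and 3 in the FSGS group. The titles of all 6 samples also carry the word untreated, while their treatment labels name the injections. By those labels and the protocol, FSGS animals had lost the left kidney by surgery and were injected with adriamycin, a DNA-damaging anthracycline, in the tail vein first with 5 mg/kg, a week (day 7) after the operation, and again with 3 mg/kg on day 28. Controls were injected with an equal volume of saline; no operation is stated for this group, and nephrectomy and drug cannot be told apart here. No age, time of tissue collection or kidney compartment is given, and the labels do not say whether libraries came from separate animals. The p-values therefore measure only the spread among these libraries, which may be technical.

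The proximal tubule is the first segment after the glomerulus and recovers most of what is filtered: water, salt, phosphate, glucose, amino acids and small proteins. Its cells also take up drugs and organic anions from blood for secretion, and make glucose from small precursors. The transcription factor HNF4A is known to be needed for this differentiated state, and loss of proximal tubule transcripts is a common description of injured tubules. In RNA of bulk tissue, fewer cells of a type and less RNA per cell cannot be told apart.

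These transcripts were abundant in the controls. Aqp1 ranked 44, 32 and 53 among nuclear genes in controls 1, 2 and 3, Slc34a1 ranked 66, 129 and 76, and Fbp1 ranked 88, 124 and 144. Hnf4a, Slc22a6 and Lrp2 ranked between 418 and 713. Slc22a8 was the exception, at rank 2674, 3798 and 3924. Markers of other kidney cells could not be looked up without names and were not analysed here. Mitochondrially encoded transcripts made up 51.6% to 62.9% of summed FPKM in controls, against 64.0% to 71.7% in FSGS, highest in FSGS 3, the library in which all 7 genes were lowest within their group. The part of this share in the changes was not tested beyond the rescaling given near the end.

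Of the 7 genes, 5 fell in FSGS kidneys, 1 rose and 1 did not pass the test. Lrp2, Aqp1, Hnf4a, Fbp1 and Slc34a1 fell, Slc22a8 rose, and Slc22a6 was lower in all 3 FSGS libraries with an adjusted p above the threshold of 0.05. Among all 14139 genes tested, 17.0% fell and 27.0% rose by the same limma test of log2(FPKM + 1). The median log2 change, FSGS minus control, was -1.33 over the 7 genes and 0.11 over all genes. Nuclear genes with a mean level between those of the lowest and highest of the 7 (33.4 to 321 FPKM) numbered 1393, of which 38.0% fell and 22.0% rose, with a median of -0.17. The FSGS values did not overlap the control values in any of the 7 genes, 6 lying below and 1 above. Of all genes tested, 21.0% lay wholly below and 34.6% wholly above.

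**Figure D1:**
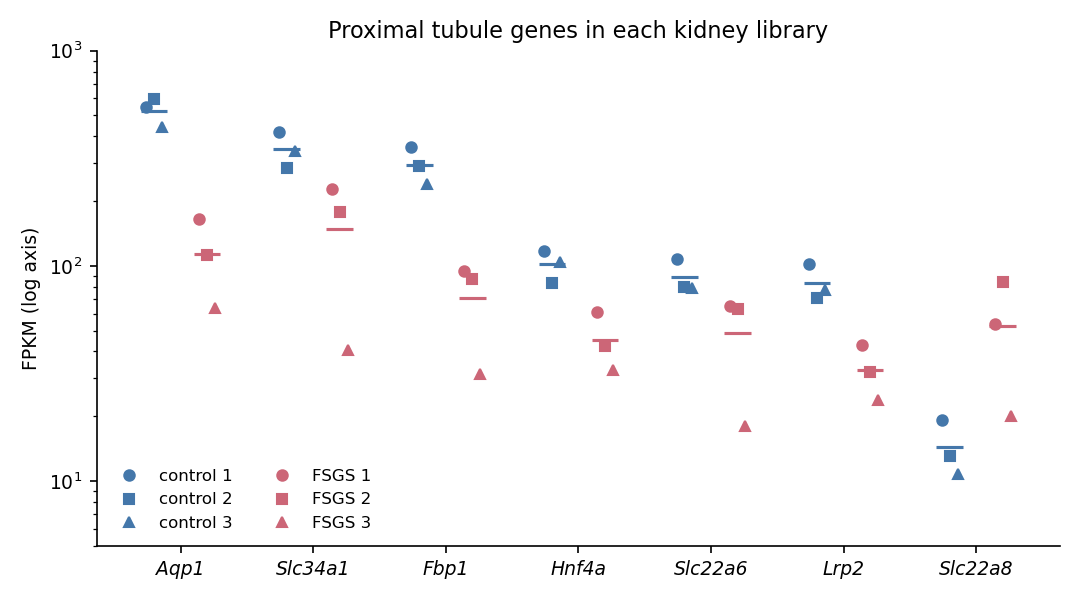
FPKM on a log axis of the 7 genes in each library, ordered by their control mean; blue symbols are the 3 control libraries, red symbols the 3 FSGS libraries, and the short lines are group means. For 6 genes every red symbol lies below every blue one, and for Slc22a8 every red symbol lies above.

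**Figure D2:**
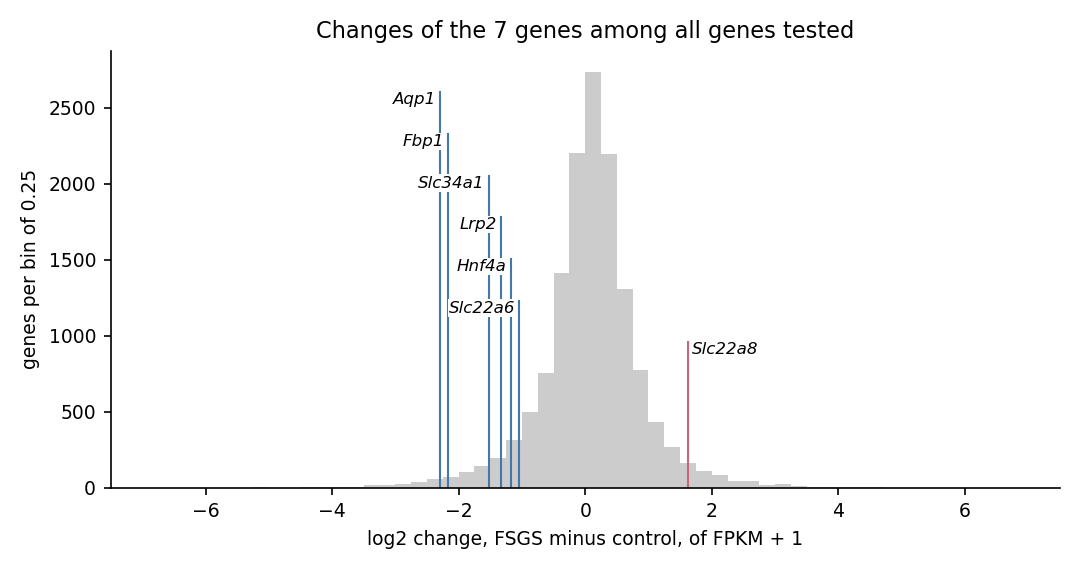
Number of genes per bin of 0.25 in log2 change (FSGS minus control, of FPKM + 1) over the 14139 genes tested, with the 7 genes marked by vertical lines whose height has no meaning. The 6 genes with lower values lie between -2.29 and -1.04, and Slc22a8 lies at 1.62.

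Lrp2 (ENSRNOG00000056184, chromosome 3) encodes megalin, the large endocytic receptor of the brush border that takes up filtered proteins. Its level was 102, 70.6 and 77.1 FPKM in controls 1, 2 and 3 and 42.8, 32.1 and 23.7 FPKM in FSGS 1, 2 and 3. The highest FSGS kidney thus lay well under the lowest control. The mean fell from 83.1 ± 16.4 to 32.9 ± 9.57 FPKM (SD, n = 3 each), a log2 change of -1.33 ± 0.22 (SE; limma adjusted p = 0.00164). A lower change was seen in 4.51% of the genes tested.

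Aqp1 (ENSRNOG00000011648, chromosome 4) encodes a water channel of the proximal tubule and the descending thin limb that is also made by endothelial cells and red cells. It was the most abundant of the 7 genes in controls, at 548, 594 and 440 FPKM, and measured 165, 112 and 64.0 FPKM in FSGS 1, 2 and 3. The mean fell 4.63-fold, from 527 ± 78.9 to 114 ± 50.7 FPKM (SD, n = 3 each), and the log2 change of -2.29 ± 0.31 was the most negative of the 7 (SE; limma adjusted p = 0.000521). Without FSGS 2 that of Fbp1 was the most negative (log2 change -2.39, against -2.33 for Aqp1). A lower change was seen in 1.32% of the genes tested. Aqp1 went from rank 32 to 53 among nuclear genes in controls to rank 200, 299 and 551 in FSGS 1, 2 and 3.

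Slc34a1 (ENSRNOG00000015262, chromosome 17) encodes the sodium-phosphate cotransporter NaPi-IIa, which recovers filtered phosphate across the brush border. Controls had 417, 284 and 342 FPKM, and FSGS 1, 2 and 3 had 228, 178 and 40.7 FPKM. FSGS 1 and 2 were moderately below the controls and FSGS 3 far below them. The mean fell from 348 ± 66.7 to 149 ± 97.0 FPKM (SD, n = 3 each), a log2 change of -1.53 ± 0.54 (SE; limma adjusted p = 0.0481). Without FSGS 3 the log2 change was -0.77 (limma adjusted p = 0.0177). The call was lost on leaving out any single control (limma adjusted p = 0.128, 0.067 and 0.121 without controls 1, 2 and 3).

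Fbp1 (ENSRNOG00000017597, chromosome 17) encodes fructose-1,6-bisphosphatase, an enzyme of glucose synthesis that the proximal tubule shares with the liver. Its levels were 356, 290 and 240 FPKM in controls and 95.1, 87.0 and 31.3 FPKM in FSGS 1, 2 and 3. The mean fell 4.15-fold, from 295 ± 58.2 to 71.1 ± 34.8 FPKM (SD, n = 3 each; log2 change -2.17 ± 0.38 SE, limma adjusted p = 0.00196). FSGS 1 and 2 were close to each other and FSGS 3 was lower, and without FSGS 3 the log2 change was -1.67 (limma adjusted p = 0.000352).

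Hnf4a (ENSRNOG00000008895, chromosome 3) encodes the nuclear receptor that drives many proximal tubule genes. It measured 117, 83.5 and 105 FPKM in controls and 60.9, 42.5 and 32.6 FPKM in FSGS 1, 2 and 3. The mean fell 2.24-fold, from 102 ± 16.9 to 45.4 ± 14.4 FPKM (SD, n = 3 each; log2 change -1.18 ± 0.23 SE, limma adjusted p = 0.00336). With all 6 libraries this was the smallest of the 5 called decreases; without FSGS 3 that of Slc34a1 was smaller (log2 change -0.77, against -0.97 for Hnf4a).

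Slc22a6 and Slc22a8 encode the organic anion transporters OAT1 and OAT3, which take up anions, diuretics and many other drugs from blood at the basolateral membrane. They lie next to each other on chromosome 1 in the RefSeq order of protein-coding genes (assembly GRCr8). Slc22a6 (ENSRNOG00000018215) had 107, 80.1 and 79.3 FPKM in controls and 64.8, 63.2 and 18.0 FPKM in FSGS 1, 2 and 3. Its mean was 88.8 ± 15.8 in controls and 48.7 ± 26.6 FPKM in FSGS (SD, n = 3 each), a log2 change of -1.04 ± 0.43 that did not pass the test (SE; limma adjusted p = 0.0774). Without FSGS 3 the log2 change was -0.45 (limma adjusted p = 0.0651), while without FSGS 1 or FSGS 2 it was -1.35 and -1.33 and passed (limma adjusted p = 0.0381 and 0.0449).

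The identifier listed as Slc22a8 (ENSRNOG00000018086) went the other way, and every value given here for Slc22a8 is that of this identifier, whose pairing with the name was not checked beyond the chromosome. It had 19.3, 13.0 and 10.8 FPKM in controls and 53.5, 83.9 and 20.1 FPKM in FSGS 1, 2 and 3. FSGS 1 and 2 stood well above the controls, whereas FSGS 3 exceeded control 1 only slightly. The mean rose 3.66-fold, from 14.4 ± 4.38 to 52.5 ± 31.9 FPKM (SD, n = 3 each), a log2 change of 1.62 ± 0.45 (SE; limma adjusted p = 0.0174). It was 2.18 without FSGS 3 (limma adjusted p = 0.000489) and 1.18 without FSGS 2 (limma adjusted p = 0.0418). The call was lost without control 3, at a log2 change of 1.45 (limma adjusted p = 0.074).

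The ratio of the paired transporter transcripts, which does not depend on how a column is scaled, was also compared. Slc22a8 stood at 0.180, 0.163 and 0.136 of Slc22a6 FPKM in controls 1, 2 and 3 and at 0.825, 1.33 and 1.12 in FSGS 1, 2 and 3. In FSGS 3 both genes were lower than in FSGS 1 and 2, Slc22a8 still lying above all 3 controls, and their ratio lay between those of FSGS 1 and 2. The mean log2 ratio was higher by 2.75 in FSGS (two-sided exact permutation p = 0.1, the smallest that 3 against 3 libraries allow). The genes belong to 1 family, and whether fragments were shared between them in counting was not tested.

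**Figure D3:**
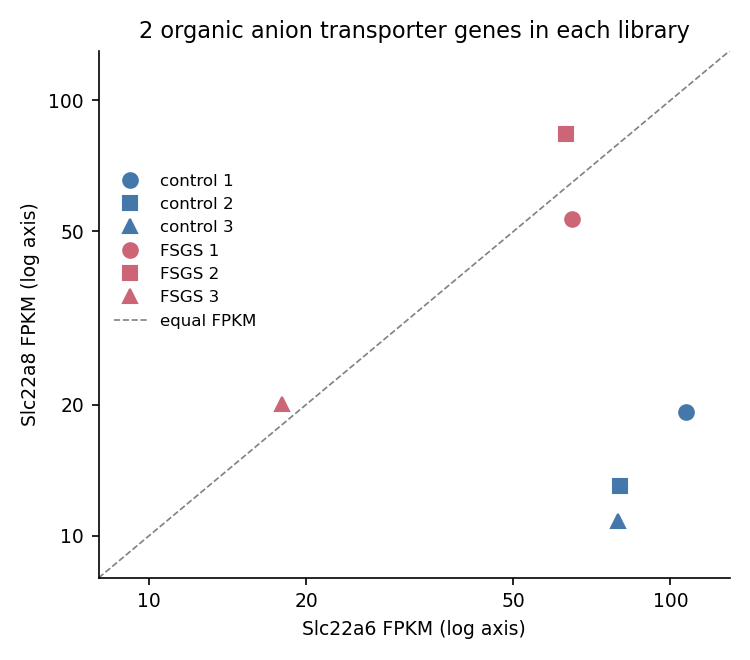
FPKM of Slc22a8 against FPKM of Slc22a6 in each library, both on log axes, with the dashed line at equal levels; blue symbols are controls and red symbols FSGS. The 3 controls lie far below the line at ratios of 0.136 to 0.180, and the 3 FSGS libraries lie near it at ratios of 0.825 to 1.33, FSGS 3 with lower levels of both than FSGS 1 and 2 and with Slc22a8 still above the controls.

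Promoter sequences from RefSeq (assembly GRCr8, 250 bases before to 50 after a transcript start) were matched by gene name. They were found for 6 of the 7 genes, with 2 windows for Hnf4a and none for Slc22a6. Exact matches on both strands were sought to CAAAGTCCA and its shorter form CAAAGTC, forms of the HNF4A motif. A match to the longer HNF4A form would also be one to the shorter. Sought likewise were GTTAATNAT, a form of the HNF1 motif, and TATAAA, a form of the TATA box. Of all 33469 promoter windows, 0.391%, 4.61%, 0.747% and 14.2% held these in that order. Among the 7 windows of the set, 2 held a match. Slc34a1 held CAAAGTC on the reverse strand at -65 to -59 and TATAAA at -43 to -38 from the start, and Aqp1 held TATAAA at -30 to -25. These 2 windows are shown with that of the name Slc22a8, and capitals mark the matches. Whether the Slc22a8 window belongs to the identifier that rose is unsure. It holds none of the exact forms. It does hold tatataa, which is close to TATAAA, and such variants were not sought. The windows shown lie at chr17:9238934-9239233 on the minus strand for Slc34a1 and chr4:85812534-85812833 on the plus strand for Aqp1. That of Slc22a8 lies at chr1:214927034-214927333 on the plus strand. All are written from 5′ to 3′ along the gene.
Slc34a1: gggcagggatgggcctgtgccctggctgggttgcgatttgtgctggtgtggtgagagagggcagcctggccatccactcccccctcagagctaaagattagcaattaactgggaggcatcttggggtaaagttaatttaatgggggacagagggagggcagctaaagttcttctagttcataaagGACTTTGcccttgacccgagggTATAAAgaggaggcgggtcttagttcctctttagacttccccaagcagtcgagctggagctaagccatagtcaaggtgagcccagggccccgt
Aqp1: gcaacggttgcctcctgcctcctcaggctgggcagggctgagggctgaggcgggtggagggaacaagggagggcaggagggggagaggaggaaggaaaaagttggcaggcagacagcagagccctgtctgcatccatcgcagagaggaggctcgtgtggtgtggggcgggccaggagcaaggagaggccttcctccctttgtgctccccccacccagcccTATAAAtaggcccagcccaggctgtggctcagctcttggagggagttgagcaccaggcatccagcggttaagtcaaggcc
Slc22a8: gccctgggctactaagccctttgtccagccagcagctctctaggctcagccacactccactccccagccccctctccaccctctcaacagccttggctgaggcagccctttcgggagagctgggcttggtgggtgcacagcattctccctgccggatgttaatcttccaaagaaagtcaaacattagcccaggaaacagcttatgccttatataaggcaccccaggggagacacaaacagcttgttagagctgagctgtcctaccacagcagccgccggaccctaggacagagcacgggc

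The matches describe letters in these windows and say nothing of binding in these kidneys. The Slc34a1 and Aqp1 transcripts both fell, and the windows of Lrp2, Fbp1 and Hnf4a, which also fell, held no match.

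Ratios between the genes within a library were compared to see whether the genes changed by unequal amounts. Of the 21 pairs, 13 had ratios that did not overlap between groups, including all 6 pairs with Slc22a8 and 7 of the other 15. Among pairs of the 1393 nuclear genes of the same range of levels, 77.5% did not overlap, a larger share than among the 21 pairs. Each of the 13 had a two-sided exact permutation p of 0.1, the smallest possible, and 0.162 adjusted over the 21 pairs, so none could pass a threshold of 0.05.

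Among the pairs without Slc22a8, the ratios of Aqp1 and Fbp1 to Lrp2 and Hnf4a separated the groups, and the ratios within those 2 couples did not. The couples were named after the ratios were seen. Separation was less common among the pairs without Slc22a8 than among pairs of nuclear genes in the same range of levels. Fbp1 stood at 0.649, 0.488 and 0.544 of Aqp1 FPKM in controls and at 0.575, 0.774 and 0.489 in FSGS, so the groups overlapped (log2 difference 0.11, exact permutation p = 0.6). Hnf4a stood at 1.15, 1.18 and 1.36 times Lrp2 FPKM in controls and at 1.42, 1.32 and 1.38 in FSGS, again with overlap (log2 difference 0.16, exact permutation p = 0.2). Hnf4a against Aqp1, in contrast, went from 0.214, 0.140 and 0.237 to 0.368, 0.378 and 0.510 without overlap (log2 difference 1.11, exact permutation p = 0.1). Lrp2 against Fbp1 went from 0.286, 0.243 and 0.322 to 0.450, 0.369 and 0.758, also without overlap (log2 difference 0.83, exact permutation p = 0.1). Hnf4a against Fbp1 and Lrp2 against Aqp1 did not overlap either, with log2 differences of 0.99 and 0.94 (exact permutation p = 0.1 each). The remaining 3 pairs without overlap were Slc22a6 against Aqp1, Fbp1 and Slc34a1, with log2 differences of 1.24, 1.12 and 0.47 (exact permutation p = 0.1 each).

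The order of levels also differed between the groups. By group mean FPKM in controls the order was Aqp1, Slc34a1, Fbp1, Hnf4a, Slc22a6, Lrp2 and Slc22a8. Neighbours in this order had ranges apart for Aqp1 over Slc34a1, Fbp1 over Hnf4a and Lrp2 over Slc22a8, and overlapping ranges for the other 3 steps. Within single libraries, Slc34a1 over Fbp1 held in 2 of 3 controls and every other step in all 3. In FSGS the order was Slc34a1, Aqp1, Fbp1, Slc22a8, Slc22a6, Hnf4a and Lrp2, and all 6 steps overlapped. Within single FSGS libraries, Aqp1 over Fbp1, Fbp1 over Slc22a8 and Hnf4a over Lrp2 held in all 3. The other steps held in 2 of 3. Of the 7 genes, 4 had shares of the summed FPKM of the set that did not overlap between groups, higher in FSGS for Slc22a8 and Slc22a6 and lower for Aqp1 and Fbp1. How often such shares separate the groups in other sets of genes was not computed. Shares of a sum are tied, so a lower share of some genes raises the shares of others. Slc22a8 made up 1.16%, 0.92% and 0.834% of the summed FPKM of the 7 genes in controls 1, 2 and 3, against 7.52%, 14.0% and 8.72% in FSGS 1, 2 and 3. Slc22a6 made up 6.43%, 5.65% and 6.13% in controls, against 9.12%, 10.6% and 7.80% in FSGS, so its share was higher while its level was lower. Aqp1 made up 32.9%, 42.0% and 34.0% in controls, against 23.3%, 18.8% and 27.8% in FSGS. Fbp1 made up 21.4%, 20.5% and 18.5% in controls, against 13.4%, 14.5% and 13.6% in FSGS. The shares of Lrp2, Hnf4a and Slc34a1 overlapped between groups. Each of the 4 shares without overlap had a two-sided exact permutation p of 0.1, the smallest possible.

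Summed over the 7 genes, the level was 1665, 1416 and 1294 FPKM in controls 1, 2 and 3 and 711, 599 and 230.3 FPKM in FSGS 1, 2 and 3. The mean was 1458 ± 189 in controls and 513 ± 251 FPKM in FSGS (SD, n = 3 each), 2.84-fold lower in FSGS, where every library lay below every control (exact permutation test, two-sided, p = 0.1, which is the floor of this design). As a share of the FPKM of nuclear genes alone, which leaves out the mitochondrial transcripts, it was 0.560%, 0.489% and 0.505% in controls, against 0.262%, 0.238% and 0.0988% in FSGS. The fold on this scale was 2.60 (two-sided exact permutation p = 0.1). The sum mostly follows its most abundant genes. Aqp1, Slc34a1 and Fbp1 made up on average 36.3%, 23.9% and 20.1% of it in controls, and 23.3%, 26.5% and 13.8% in FSGS. Slc22a8 made up 0.97% in controls and 10.1% in FSGS.

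FSGS 3 lay below FSGS 1 and 2, and further so for the solute carriers and Fbp1 than for Lrp2 and Hnf4a. Lrp2 (42.8, 32.1 and 23.7 FPKM) and Hnf4a (60.9, 42.5 and 32.6 FPKM) formed a gradient over FSGS 1, 2 and 3, in which FSGS 3 was lowest but not set apart. Its FPKM was 0.200 of the mean of FSGS 1 and 2 for Slc34a1, 0.281 for Slc22a6, 0.292 for Slc22a8 and 0.343 for Fbp1. For Aqp1 it was 0.461, for Lrp2 0.633 and for Hnf4a 0.631. FSGS 3 was the lowest FSGS library in 7 of 7 genes, against 59.1% of all genes tested and 68.3% of nuclear genes in the same range of levels. On the log2 scale, 0.0495% of the genes tested lay lower in FSGS 3 relative to FSGS 1 and 2 than Slc34a1 did, and 0.17% lower than Slc22a6. The log2 SD was larger among FSGS than among control libraries in 7 of 7 genes, against 48.7% of all genes tested. The genes share these libraries, so such counts are not 7 separate observations. The limma fit takes 1 variance per gene for both groups, and the effect of unequal SDs on its p-values was not tested. FSGS 3 also had the highest mitochondrial share, 71.7% of summed FPKM against 64.0% and 68.4%, and the part of that share in these values was not tested. Controls were closer together: the highest control was 1.35 to 1.78 times the lowest over the 7 genes, while in FSGS this ran from 1.81 for Lrp2 to 5.61 for Slc34a1.

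**Figure D4:**
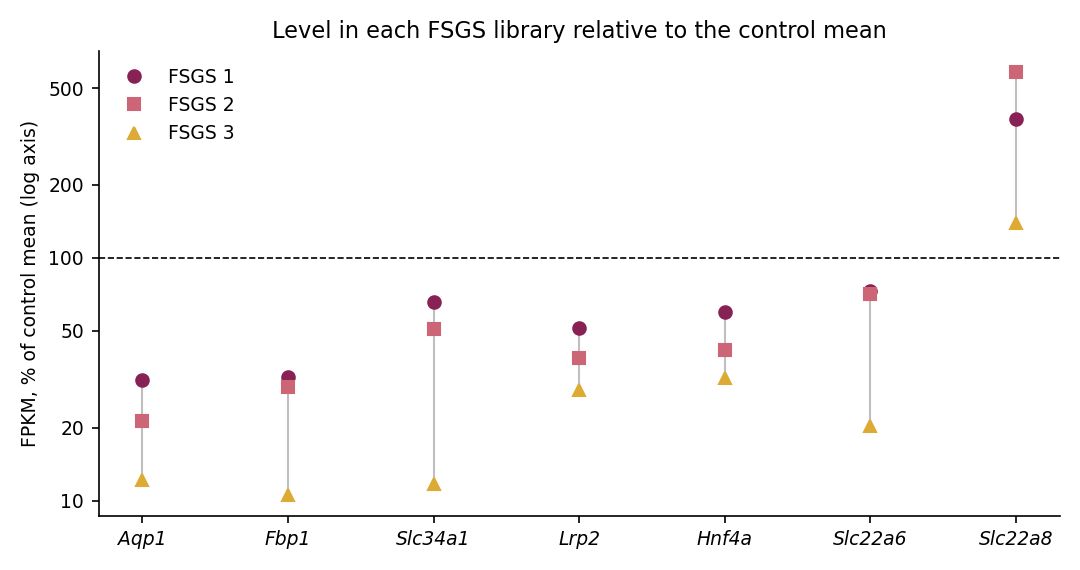
FPKM of each gene in FSGS 1 (circle), FSGS 2 (square) and FSGS 3 (triangle) as a percentage of its control mean, on a log axis, with the dashed line at 100. FSGS 3 is the lowest symbol for every gene; it lies at 10.6% for Fbp1, 11.7% for Slc34a1 and 12.1% for Aqp1 but at 32.1% for Hnf4a and 28.5% for Lrp2, and Slc22a8 stays above the line in all 3 libraries.

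Leaving out FSGS 3 kept the direction of all 7 genes. The log2 changes were then -1.13 for Lrp2, -1.93 for Aqp1 and -0.97 for Hnf4a (limma adjusted p = 0.00298, 0.000317 and 0.00671), beside the values given above for the others. The log2 change of the summed level was then -1.15, against -1.65 with all libraries.

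The genes outside the set whose profiles over the 6 libraries lay nearest the mean profile of the 7 were taken from 7639 genes with a mean of at least 5 FPKM, by root mean square distance of centred log2(FPKM + 1). ENSRNOG00000042084 on chromosome 1 was nearest, at a distance of 0.0934, with 89.9, 65.1 and 67.1 FPKM in controls and 45.0, 44.2 and 19.5 FPKM in FSGS 1, 2 and 3. ENSRNOG00000012794 on chromosome 5 followed at 0.125, with 139, 119 and 120.4 FPKM in controls and 86.1, 60.7 and 30.5 FPKM in FSGS 1, 2 and 3. Within the set the distance from the mean profile was smallest for Slc22a6 (0.150) and largest for Slc22a8 (1.41). The mean profile was taken over all 7 genes, including Slc22a8, which moved the other way. Each gene of the set was thus compared with a mean that holds it. Likeness over 6 libraries of 2 groups is a description.

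All 7 genes kept their direction under the 17 alternatives of scaling, filter, pseudocount, limma option and library left out. The calls for Lrp2, Aqp1, Hnf4a and Fbp1 held in all 17, with limma adjusted p of at most 0.0174. That for Slc22a8 held in 15 and that for Slc34a1 in 9, while Slc22a6 passed in 5. Over the alternatives the limma adjusted p ran from 0.000489 to 0.074 for Slc22a8, from 0.00906 to 0.128 for Slc34a1 and from 0.0174 to 0.194 for Slc22a6. Scaling moved the median of all genes between -0.12 (columns rescaled to a common total) and 0.27 (rescaled to the nuclear total), against 0.11 as deposited. On the latter scale Slc34a1 had a log2 change of -1.38 and did not pass (limma adjusted p = 0.0709), and Slc22a8 rose by 1.82 (limma adjusted p = 0.0122).

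**Figure D5:**
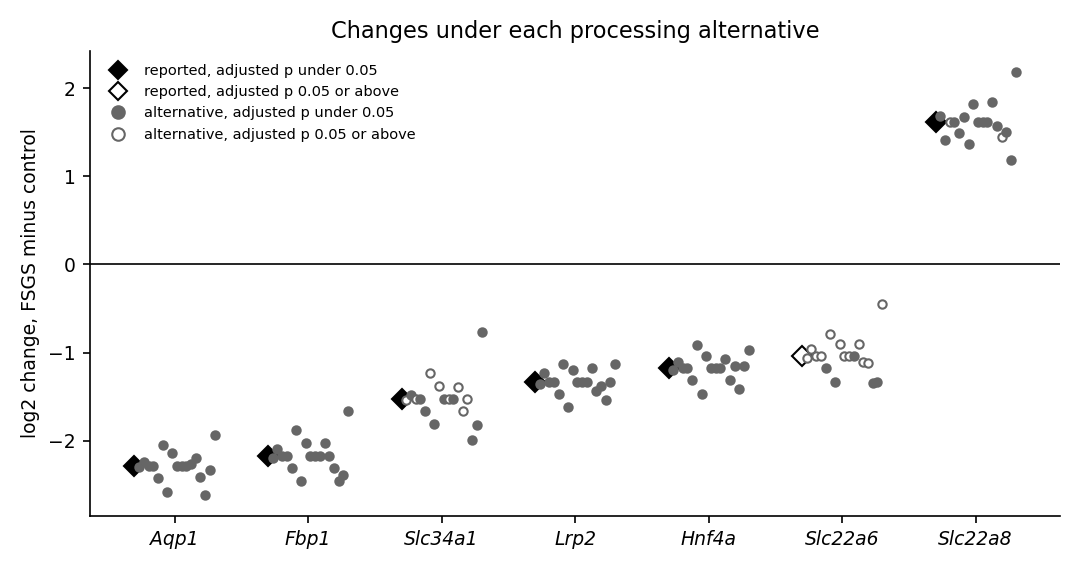
Log2 change, FSGS minus control, of each gene under the reported setting (diamond) and the 17 alternatives (circles); filled symbols have a limma adjusted p under 0.05 and open ones do not. No symbol crosses 0; open circles occur for Slc34a1, Slc22a6 and Slc22a8, the last with 2.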

How the data were processed

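Kidney RNA of 3 control and 3 FSGS samples was enriched for poly(A) transcripts and sequenced as paired ends from strand-marked libraries, per the labels' protocols. Tools listed in the submitters' processing notes are HISAT2 2.2.1, cutadapt 1.9, edgeR, DESeq2 and StringTie 2.1.6, with no role stated. Build, annotation and use of strand in counting are not given in the sources used here. Per the file headers the authors deposited FPKM, a scaling for gene length and library size. Read numbers are not given with them. Among low genes, ratios between libraries showed no pile-up at 1 value that whole fragments would leave (at most 12.8% in any log2 window of 0.05). Values of 2 decimals can blur such a pile-up, so its absence cannot show whether read numbers could be recovered. Depth is unknown here, and intervals for counting error cannot be given. A rise of abundant transcripts lowers all other values.

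Genes with a mean of at least 0.5 FPKM (14139 of 21986) were fitted as log2(FPKM + 1) by group alone in limma 3.58.1 (R 4.3.3) with a mean-variance trend, with Benjamini-Hochberg adjustment over all of them and a threshold of 0.05. The added 1 slightly shrinks the changes on this scale. Each is a difference of mean logs, so it can be larger or smaller than the fold between mean FPKM. The script was tested on simulated data. For single values, exact permutation tests over libraries (two-sided) were used (SciPy 1.17.1). Figures were drawn with matplotlib 3.10.9.

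The genes and lists were chosen with earlier results of these data known. All 7 genes are named; 2 further genes are named by their nearest profile. The RefSeq gene table held an Ensembl ID in 0 of 47357 rows, so the wider proximal tubule list and the markers of other cell types were not analysed here. The settings varied were the pseudocount, the filter, the scaling of columns, options of limma, the replicate number as a block, and leaving out each library.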

Additional observations from a re-analysis of the deposited data

How the results depend on the processing

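The number of genes of the 7 that fell was 5 as reported and 4 to 6 over the 17 alternatives. The number that rose was 1, and 0 with no filter on low values (Slc22a8 limma adjusted p = 0.0526) and without control replicate 3; leaving out single libraries gave 0 to 1. With the replicate number as a block, Slc22a6 passed as well (limma adjusted p = 0.0458) and no other call of the 7 changed; over genes, libraries of the same number deviated from their group means with correlations of 0.13, 0.03 and 0.02, with control 2 correlating best with FSGS 3 (0.09), and the numbers were not taken as pairs. Slc22a6 also passed with median-of-ratios scaling (limma adjusted p = 0.0485) and after rescaling to a common total (0.0174). Besides the single libraries left out, the Slc34a1 call was lost with pseudocount 0.1 (limma adjusted p = 0.0533), no filter (0.115), quantile normalization (0.108), rescaling to the nuclear total (0.0709) and robust variances (0.0819); the cause was not tested. The summed level was lower by a log2 change of -1.97 to -1.15 when single libraries were left out. Pairs without overlap numbered 19 without FSGS 3 and 13 to 15 without any other single library. Leaving out a library can only keep or raise this number. Depth, and so its limit, is unknown.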
